A study of Mus musculus with 21 samples.

Results

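A set of 38 interferon-stimulated genes was followed through acquired resistance to the MEK inhibitor trametinib and through drug withdrawal in mouse pancreatic ductal adenocarcinoma (PDAC) cells. The members were the rows with these 38 gene symbols among the 34478 genes of the deposited RNA sequencing table, and all 38 were found. They comprise 4 transcription factors (Stat2, Irf1, Irf7, Irf9), 5 sensors of foreign nucleic acid (Ifih1, Ddx58, Dhx58, Zbp1, Eif2ak2), 18 effectors, 6 genes of the ISG15, ubiquitin and ADP-ribose systems and 5 guanylate-binding or immunity-related GTPases. The RNA came from 6 primary cell lines, numbered #3, #4, #6, #7, #9 and #10, each from a pancreatic tumour of a mouse that carried Ptf1awt/Cre and Trp53loxP/loxP, in which the Cre sits at a pancreatic progenitor gene and deletes Trp53 there. All 21 samples share one genotype. Parental cells had never met the drug (6 samples), resistant cells were selected by stepwise dose escalation and kept in trametinib (6), and P5 (3, lines #3, #7 and #9) and P12 (6) were resistant cells returned to drug-free medium for 5 and 12 passages. The label descriptions give 12 drug-free passages for P5 of lines #7 and #9 while their titles give 5, and the titles are followed here. With 1 sample of a line in each state, the lines serve as replicates, and the change of a single line has no replicate check. In lines #3 and #9, genome sequencing in the same work traced the resistant cells to outgrowth of a single clone, so a resistant sample may stand for a clone and not for the whole parental culture.

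Cells respond to type I interferon through the receptor chains IFNAR1 and IFNAR2, whose kinases JAK1 and TYK2 activate transcription factors, STAT2 among them. STAT2 and IRF9 belong to the complex that binds the interferon-stimulated response element (ISRE), while type II interferon acts through IFNGR1 and IFNGR2 and on the gamma-activated site (GAS). The induced genes block viral replication, sense nucleic acids, attach ISG15 to proteins or attack membranes of intracellular microbes, and several of them, such as Usp18, dampen the response again. Tumour cells can express them without an infection.

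Many of the members lie in gene clusters. Counting members less than 500 kb apart, 19 of 38 fell into 8 clusters (GENCODE M21 annotation of GRCm38). The Ifit cluster (Ifit1, Ifit2, Ifit3) spans 99.3 kb of chromosome 19, the Gbp cluster (Gbp2, Gbp3, Gbp7) 108 kb of chromosome 3, and Parp9, Dtx3l and Parp14 lie within 140 kb of chromosome 16. Promoter sequences, 250 bases before to 50 bases after the start of transcription, could be matched by symbol for 28 members (RefSeq, GRCm38.p6). The letters GAAA, then any 2 bases, then GAAA again, taken as the ISRE and searched on both strands, occurred in the promoters of 16 of these 28 members, 57.1%, against 3.82% of the 12394 tested genes with a promoter and 3.99% of all 27025. The letters TTCNNNGAA, taken as the GAS, occurred in 9 of 28, 32.1%, against 8.36% of the tested genes. A match describes letters in this window and not a bound site.

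The promoters printed next are those of the 4 members called higher in resistant cells, of Irf1, which was called when the line was taken into account, and of Isg15, the ubiquitin-like protein of the response, whose level differed widely between lines. Capitals mark either motif, on either strand, and all sequences run 5′ to 3′ in the direction of the gene. Gbp2 (chr3:142620413-142620712, plus strand) holds 1 ISRE that starts 59 bases before the start of transcription, Ddx58 (chr4:40239776-40240075, minus strand) holds 1 just after it, and Isg15 (chr4:156200769-156201068, minus strand) holds 3 that overlap. Ifi35 (chr11:101448162-101448461, plus strand), Ifit2 (chr19:34550444-34550743, plus strand, the upstream of its 2 listed starts) and Irf1 (chr11:53769764-53770063, plus strand, likewise the upstream one) hold no ISRE of these letters and 1 GAS each.
Gbp2: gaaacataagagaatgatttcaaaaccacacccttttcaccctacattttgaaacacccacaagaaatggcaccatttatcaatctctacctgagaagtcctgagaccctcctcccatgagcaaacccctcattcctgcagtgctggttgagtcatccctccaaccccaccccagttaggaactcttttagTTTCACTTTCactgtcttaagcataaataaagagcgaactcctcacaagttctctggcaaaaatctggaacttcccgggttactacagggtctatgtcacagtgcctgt
Ddx58: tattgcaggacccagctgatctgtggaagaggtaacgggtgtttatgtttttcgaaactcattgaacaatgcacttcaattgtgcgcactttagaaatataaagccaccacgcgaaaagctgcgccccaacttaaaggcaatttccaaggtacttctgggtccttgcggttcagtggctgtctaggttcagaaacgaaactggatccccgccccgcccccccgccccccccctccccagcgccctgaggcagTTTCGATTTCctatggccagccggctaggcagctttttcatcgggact
Isg15: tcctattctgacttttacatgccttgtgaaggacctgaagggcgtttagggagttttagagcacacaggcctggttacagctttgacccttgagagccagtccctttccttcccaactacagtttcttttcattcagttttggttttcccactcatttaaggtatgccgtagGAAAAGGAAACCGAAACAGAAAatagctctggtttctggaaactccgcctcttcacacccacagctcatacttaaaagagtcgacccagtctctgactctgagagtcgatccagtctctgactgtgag
Ifi35: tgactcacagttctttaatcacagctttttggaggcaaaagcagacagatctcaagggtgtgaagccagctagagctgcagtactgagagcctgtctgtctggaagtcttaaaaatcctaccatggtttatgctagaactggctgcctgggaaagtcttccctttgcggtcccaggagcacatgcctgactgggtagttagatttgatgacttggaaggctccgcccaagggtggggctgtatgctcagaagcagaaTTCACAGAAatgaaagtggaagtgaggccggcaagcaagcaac
Ifit2: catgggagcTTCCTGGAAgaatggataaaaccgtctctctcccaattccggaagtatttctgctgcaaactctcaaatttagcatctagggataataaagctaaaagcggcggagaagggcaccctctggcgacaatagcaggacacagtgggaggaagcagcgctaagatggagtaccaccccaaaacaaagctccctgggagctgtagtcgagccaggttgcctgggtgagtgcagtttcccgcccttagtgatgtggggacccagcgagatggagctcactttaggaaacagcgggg
Irf1: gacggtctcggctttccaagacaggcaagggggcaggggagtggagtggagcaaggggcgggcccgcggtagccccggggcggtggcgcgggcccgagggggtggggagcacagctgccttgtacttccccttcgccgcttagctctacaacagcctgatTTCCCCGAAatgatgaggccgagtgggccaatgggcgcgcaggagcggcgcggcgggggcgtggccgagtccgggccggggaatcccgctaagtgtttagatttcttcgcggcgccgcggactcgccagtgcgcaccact

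Values are normalized counts as deposited. The depth of a sample, estimated from the step size among low values, was 24100000 to 42700000 reads, and 3 reads, taken as the lowest level that can be told from 0, corresponded to 2.31 to 4.07 normalized counts (counting error only). Of the 38 members, 28 to 38 exceeded that level in a parental sample and 34 to 38 in a resistant one. All but Zbp1 passed the filter of at least 10 in at least 3 samples. The labelled origin was checked with markers: keratin genes of ductal cells were high in 5 lines, with Krt19 at 31733 to 55658 in their parental samples, while parental line #9 had 3074 and 816 for Cdh1, the epithelial cadherin. Epcam was listed at 0 in 20 of 21 samples. Ptf1a, whose locus carries the Cre, was listed at 0 in 20 of 21 samples.

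A pair of libraries stood apart in the members before any comparison was made. P12 of line #6 had the highest value of all 21 samples for 29 of the 37 tested members, where it was the highest for 2.98% of all tested genes. Parental line #9 had the highest parental value for 24 of 37 members, where this held for 25.9% of all tested genes. Both counts include Oas2, which reached 10 in 3 samples only, these 2 libraries among them (367 and 11.8). It was tested through the values that place it in the counts, and without either library 36 members passed the filter. Relative to each member's mean over the 21 samples, the median member stood at 3.17 on the log2 scale in P12 of line #6 and at 0.89 in the next sample, P5 of line #3. It stood at 0.43 in parental line #9 and between -1.48 and -0.53 in the other 5 parental samples. Some results that rest on these 2 libraries are also given without them. For resistant against parental cells, only the calls are, and the fitted median and the unadjusted counts are not.

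**Figure D1:**
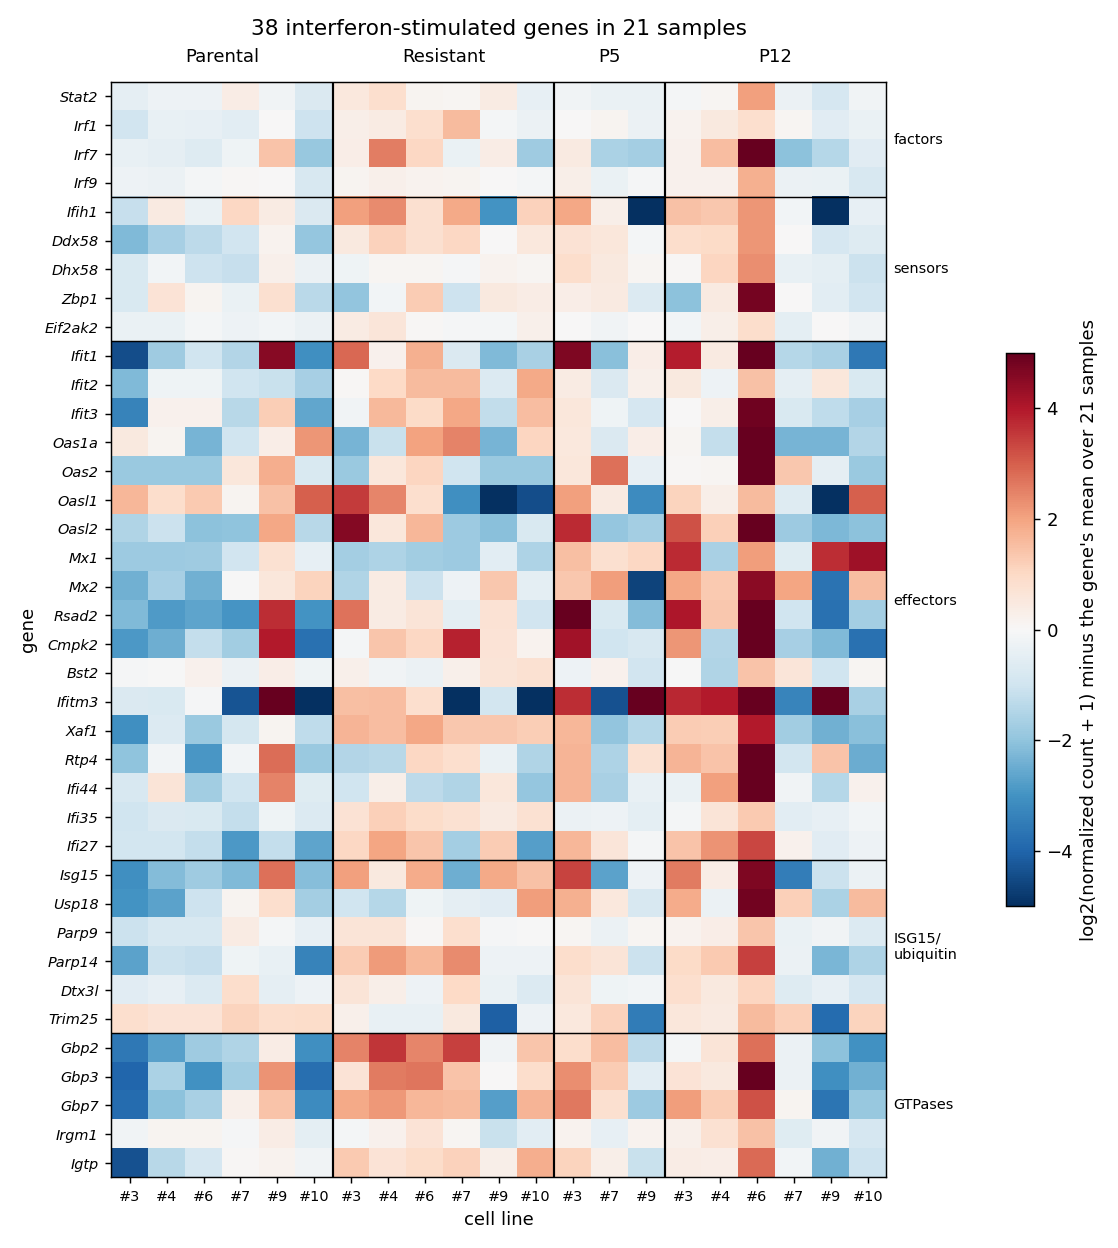
Heat map of the 38 members (rows, grouped by role) in the 21 samples (columns, grouped by state and labelled by cell line). Colour gives log2(normalized count + 1) minus the gene's mean over all samples, cut at 5 in either direction. The column of P12 line #6 is red in nearly every row, with a median member at 3.17, and parental line #9 is the parental column with most red cells.

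Resistant cells were compared with parental cells to ask which members changed with acquired resistance. Of 37 members tested, 4 were called higher (adjusted p below 0.01 in limma, log2 difference above 1) and 0 lower, against 5.3% of all 19300 tested genes called in either direction and 2.57% called higher. The 4 were the guanylate-binding protein Gbp2, the RNA sensor Ddx58 (RIG-I), Ifit2, which binds viral RNA and restrains its translation, and Ifi35, a partner of the Nmi protein. With the cell line as a block, Irf1 and Parp14 were called as well, 6 in all, where 10.5% of all genes were called. The fitted difference was above 0 for 30 of 37 members, with a median of 0.93 against -0.00 over all tested genes. At an unadjusted p below 0.05, 13 members were higher and 0 lower, where 29.2% of all genes passed. Markers of cell identity moved between the same groups: the summed level of 8 ductal genes was 18371 to 283872 with a median of 248241 in parental and 1693 to 210019 with a median of 62681 in resistant cells, and that of 8 fibroblast genes 47.3 to 4484 with a median of 178 and 323 to 26417 with a median of 9360. Acta2 had the largest resistant median of the fibroblast list, at 25.5 in parental and 5107 in resistant cells. The list did not move as one. Pdgfrb, Col15a1 and Des also had higher medians in resistant cells. The median of Pdgfra went from 43.2 to 52.4 and that of Rgs5 from 2.50 to 1.01, while Lum and Dpt had medians below 1 in both states. The ductal genes differed as well. The median of Krt19 went from 35795 in parental to 28692 in resistant cells, and that of Cdh1 from 30049 to 58.4. Krt19 was higher in the resistant than in the parental samples of lines #4 and #7. The part of the ductal and fibroblast markers in the result was not tested. In such bulk samples, more cells that express a gene and more RNA per cell cannot be told apart.

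Among the factors, Irf1, a factor of the response to interferon gamma, measured 879.7 to 1831 with a median of 1291 in parental and 1470.0 to 5359 with a median of 2287 in resistant cells. The groups overlapped, with parental line #9 above the resistant samples of lines #9 and #10, at 1655 and 1470.0. The log2 difference was 1.00 (SE 0.29, adjusted p = 0.0241) without and 1.00 with the block (adjusted p = 0.00737). Irf9, which brings the ISRE-binding complex to DNA, measured 391 to 719 with a median of 607 and 639.8 to 814 with a median of 753 in these states, and Stat2, its partner, 641 to 1353 with a median of 882 and 791 to 1903 with a median of 1279.8. Neither was called, though Irf9 was higher in the resistant sample of 6 of 6 lines and Stat2 in 5. Irf7, the factor that amplifies interferon production, measured 9.51 to 209.5 with a median of 44.7 in resistant cells, with line #4 highest, and 8.77 to 96.6 with a median of 25.9 in parental ones.

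Among the sensors, Ddx58 measured 179.7 to 928 with a median of 297 in parental and 839.5 to 1846 with a median of 1328 in resistant cells. Its resistant values lay above the parental ones except in line #9, whose parental sample, at 928, exceeded its resistant one at 839.5. The log2 difference was 1.98 (SE 0.45, adjusted p = 0.00623). Ifih1 (MDA5), the sensor of long double-stranded RNA, measured 100.3 to 464 with a median of 238 in parental and 27.4 to 1153 with a median of 665 in resistant cells and was not called. It was higher in the resistant sample of 5 lines, while line #9 went from 301 to 27.4. Eif2ak2 (PKR), the kinase that halts translation on double-stranded RNA, was higher in the resistant sample of 6 of 6 lines by a small amount, at 1325 to 1575 with a median of 1391 and 1563 to 2587 with a median of 1902, and was not called.

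Among the effectors, Ifi35 measured 270.2 to 532 with a median of 371 in parental and 852 to 1407 with a median of 1048 in resistant cells. Every resistant sample lay above every parental one, and the log2 difference of 1.57 (SE 0.26, adjusted p = 0.000576) had the smallest adjusted p of all members. Ifit2 measured 153 to 611 with a median of 338 and 444 to 2649.5 with a median of 1747 in these states. The groups overlapped, yet each line was higher in its resistant than in its parental sample, and the log2 difference was 1.97 (SE 0.47, adjusted p = 0.00822). Xaf1, a promoter of cell death, measured 20.96 to 198 with a median of 86.5 and 424 to 696 with a median of 495 without overlap, with a log2 difference of 2.78 (SE 0.89, adjusted p = 0.0406) that missed the threshold. Ifit1, Rsad2 and Mx1 were not called, and parental line #9 held the highest parental value of each. Ifit1, which binds viral RNA ends, measured 0 to 511 with a median of 6.18 in parental and 3.76 to 157 with a median of 18.3 in resistant cells. Rsad2 (viperin), which makes a chain-terminating nucleotide, measured 0.687 to 169 with a median of 0.999 and 5.78 to 86.6 with a median of 18.1. Mx1 measured 9.84 to 64.8 with a median of 14.6 and 10.0 to 25.9 with a median of 11.5.

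Among the GTPases, which attack the vacuoles of microbes, Gbp2 had the largest fitted difference of the called members, with 5.76 to 102 with a median of 16.8 in parental and 69.3 to 955 with a median of 439 in resistant cells. The groups overlapped by line #9 alone, and line #9 was the exception, at 102 in parental and 69.3 in resistant cells. The log2 difference was 4.23 (SE 0.89, adjusted p = 0.00366). Gbp3, its neighbour on chromosome 3, measured 1.66 to 195 with a median of 7.71 and 41.2 to 265 with a median of 92.9, with a log2 difference of 3.36 (SE 1.16, adjusted p = 0.0552). Gbp7, the third of the cluster, measured 3.43 to 172 with a median of 17.0 and 8.50 to 281 with a median of 204. Gbp3 and Gbp7 were called when line #9 was left out. Igtp, of the immunity-related family, did not overlap, with 3.00 to 92.7 with a median of 58.8 and 98.5 to 291 with a median of 169, and was not called. Reads of near-identical Gbp and Ifit copies can be shared between genes by the quantification, so the values of single copies are uncertain.

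Among the ISG15, ubiquitin and ADP-ribose genes, Parp14, an ADP-ribosyltransferase, measured 15.8 to 143 with a median of 76.8 in parental and 140.4 to 858 with a median of 459.9 in resistant cells and was higher in 6 of 6 lines. The log2 difference was 2.61 (SE 0.82, adjusted p = 0.0359) without the block, and the adjusted p was 0.00749 with it. Isg15 measured 2.99 to 222 with a median of 6.44 in parental and 5.10 to 136 with a median of 104 in resistant cells. Its parental values were all below 10 outside line #9, its resistant value was that low in line #7 only, and it was not called. Trim25, the ubiquitin ligase that activates the product of Ddx58, went the other way, with 2875 to 3925 with a median of 3275 in parental and 107 to 2562 with a median of 1451 in resistant cells. Every resistant sample lay below every parental one, but the difference was not called with or without the block. In all, 3 members did not overlap and were higher (Xaf1, Ifi35, Igtp) and 1 was lower (Trim25), where 2.83% and 3.16% of all tested genes did so, and 8 of 37 were higher in 6 of 6 lines, where 8.99% of all genes were.

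**Figure D2:**
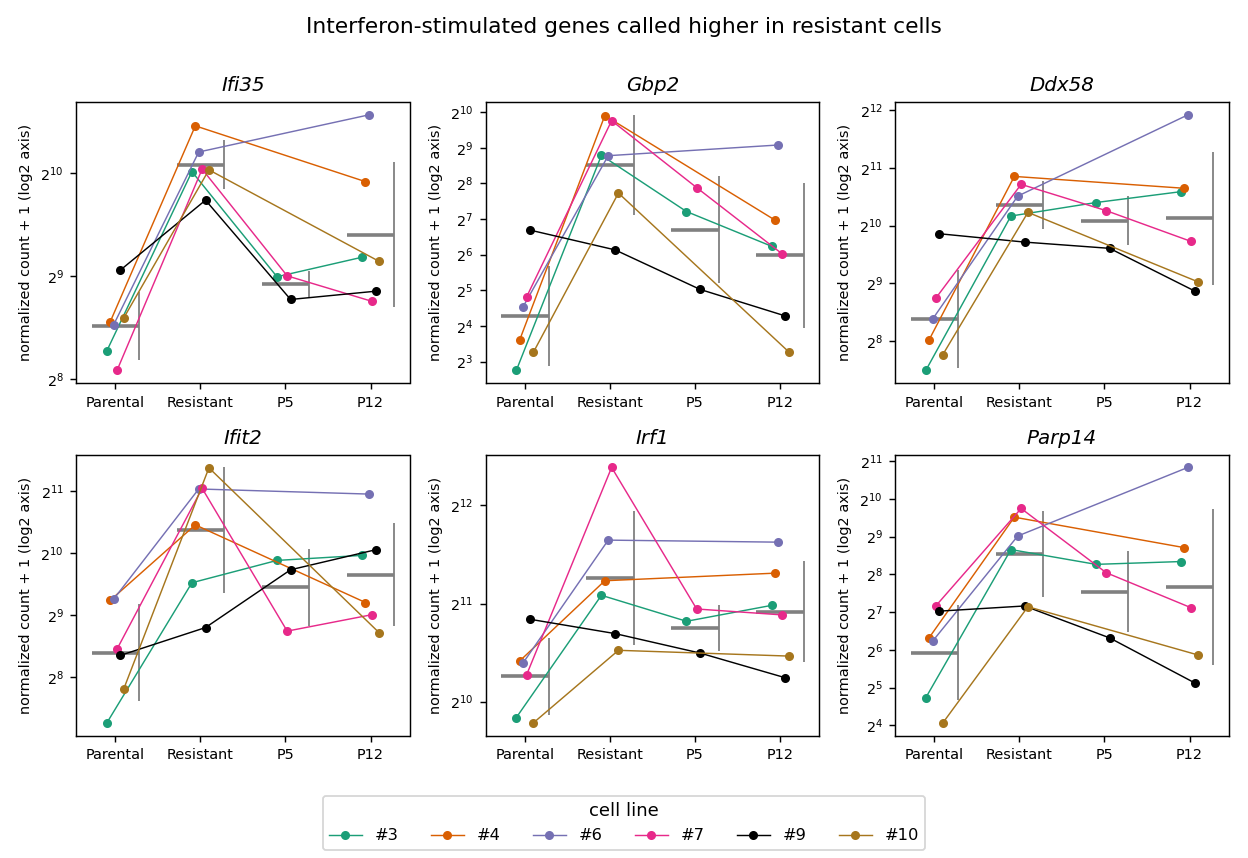
Normalized counts + 1 (log2 axis) of the 6 members called in resistant against parental cells, without the block (Ifi35, Gbp2, Ddx58, Ifit2) or with it only (Irf1, Parp14), by state. Points are samples joined by cell line; grey bars are means of the log2 values with 1 SD. Line #9 (black) starts highest for Gbp2 and Ddx58 and does not rise in them.

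The number of members called depended on the lines in the fit. Leaving out line #3, #4, #6, #7 or #10 in turn left 1 member called, Ifi35, where 2.71%, 2.47%, 2.37%, 5.76% and 2.64% of all genes were. Leaving out line #9 gave 6 (6.58% of all genes), which added Gbp3 and Gbp7 to the 4. With the block, 1, 1, 2, 1 and 2 members were called without those 5 lines (6.33%, 6.96%, 6.03%, 9.06% and 7.25% of all genes) and 8 without line #9 (10.6%). Without the parental sample of line #9 alone, Ddx58, Gbp2 and Ifi35 were called (5.55% of all genes). Leaving out P12 of line #6 from the shared fit left the same 4 members called (5.15%).

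Changes within each line showed a split between line #9 and the rest. Between 26 and 34 of 37 members were higher in the resistant than in the parental sample of lines #3, #4, #6, #7 and #10, and 13 were in line #9. The median change was 1.82 in line #3, 1.64 in line #4, 1.68 in line #6 and 0.74 in both lines #7 and #10 on the log2 scale, and -1.08 in line #9, while the median over all tested genes lay between -0.03 and 0.02 in every line. In the resistant sample 23 members were higher by more than 2-fold in line #3, 25 in line #4 and 23 in line #6, where 22.4%, 20.8% and 18.2% of all genes were. In lines #7 and #10, 16 and 18 members were, where 15.3% and 18.6% of all genes were. In these lines 3 and 7 members were lower by as much, where 23.5% and 18.3% of all genes were. In line #9, 2 members were higher and 19 lower by more than 2-fold, where 19.1% and 19.4% of all genes were. The change of line #9 starts from its parental library, which stood apart above. Relative to each member's mean over the 21 samples, the median member stood at 0.43 there and between -1.48 and -0.53 in the other parental samples. In the resistant samples it stood at -0.11 in line #9, the lowest, and at -0.10 in line #10, the next. With 1 sample per line and state, the difference of line #9 from the others was not tested.

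Single members show the size of this. Isg15 went from 222 to 123, Oasl2 from 246 to 14.4 and Ifit1 from 511 to 3.76 between its parental and resistant samples. In line #3 the same genes went from 2.99 to 136, from 22.4 to 1581 and from 0 to 157. Some members were far lower in line #9 after resistance and also after withdrawal. Ifih1 was at 2.95 in its P5 and 2.83 in its P12 sample. Trim25 was at 3319 in parental, 107 in resistant, 159.6 in P5 and 125 in P12 cells of the line, and no other sample of the series was below 1375. Oasl1, a relative of the oligoadenylate synthetases, was at 206 in parental line #9 and listed at 0 in its resistant and P12 samples, and it was also low in the resistant samples of lines #7 and #10, at 7.80 and 2.40.

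**Figure D3:**
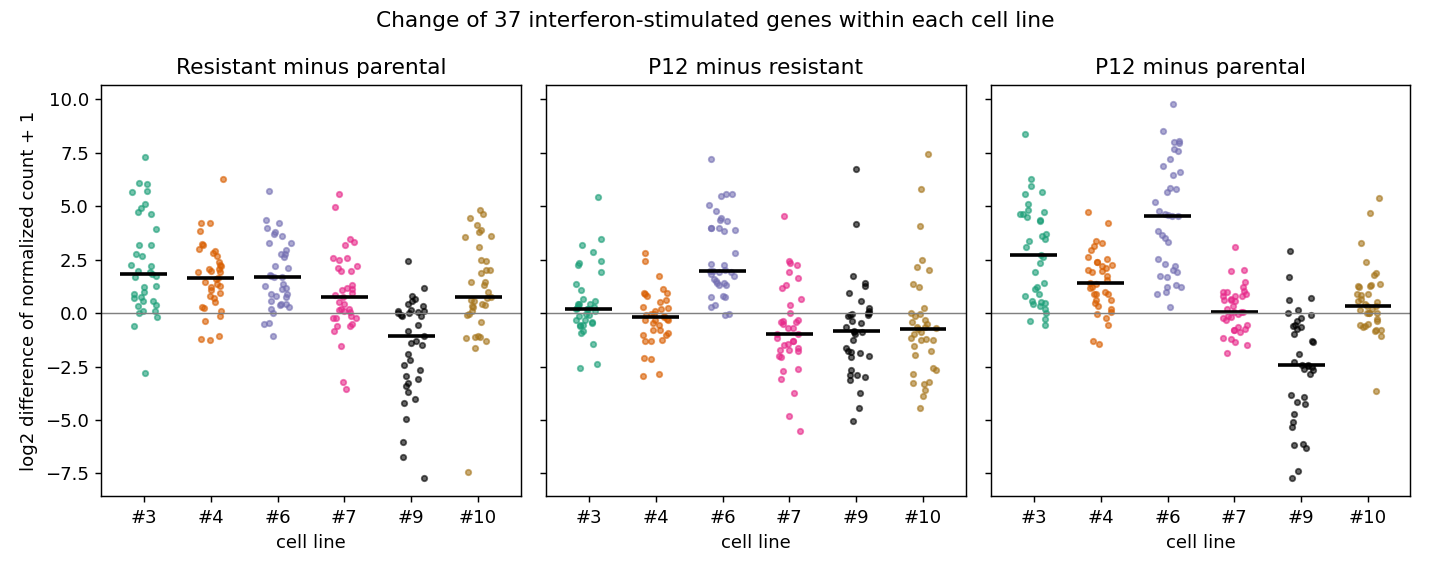
Log2 difference of normalized count + 1 for each of the 37 tested members (points) within each cell line (columns), for 3 pairs of states (panels); black bars are medians over the members. The median of line #9 lies below 0 in all 3 panels, and that of line #6 is highest in both panels with P12, with medians of 1.96 and 4.56. Each panel shares samples with the other panels.

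P12 cells were compared with resistant cells to ask what changed after the drug was withdrawn. No member was called without the block in limma, where 2.13% of all genes were, and at an unadjusted p below 0.05 1 member was higher (Mx1) and 2 were lower (Gbp2, Ifi35), where 19.8% of all genes passed. With the block, 2 members were called higher, Mx1 and Ifitm3, where 4.52% of all genes were called. The median over the members was -0.03, and 18 of 37 were higher. Without P12 of line #6 the median fell to -0.56 over 36 tested members, and 0 members were called with or without the block, where 3.74% and 2.11% of all genes were.

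Mx1, a GTPase that traps viral ribonucleoproteins, measured 10.0 to 25.9 with a median of 11.5 in resistant and 11.6 to 729 with a median of 326 in P12 cells. P12 of lines #3, #9 and #10 held the highest values, at 511, 489.8 and 729, while lines #4 and #7, at 11.6 and 23.9, lay within the resistant range. The log2 difference was 3.39 (SE 0.82, adjusted p = 0.0172) without the block, and with it the adjusted p was 0.00553, or 0.016 without P12 of line #6. Ifitm3, which stops viruses at endosomal membranes, was 1 of 2 members higher in P12 than in resistant cells of 6 of 6 lines, with Trim25 (7.77% of all genes), at 0 to 666 with a median of 267 and 22.6 to 12982 with a median of 3398. Its range within a state spanned several orders of magnitude, and the log2 difference was 4.06 (SE 2.23, adjusted p = 0.334) without the block and 4.06 (SE 0.87, adjusted p = 0.00677) with it. Without P12 of line #6, the adjusted p with the block was 0.0194.

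The members called higher in resistant cells were not called lower in P12. Gbp2 measured 8.71 to 539 with a median of 69.4 in P12 cells, with a log2 difference from resistant cells of -2.53 (SE 0.89, adjusted p = 0.104). Ifi35 measured 430.3 to 1515 with a median of 572, with a log2 difference of -0.68 (SE 0.26, adjusted p = 0.134). Without P12 of line #6 these differences were -3.15 (SE 0.83, adjusted p = 0.0296) and -0.91 (SE 0.21, adjusted p = 0.0151), also not called. Ddx58 measured 467 to 3862 with a median of 1192, with lines #3, #4 and #6 at 1538 or above. Ifit2 measured 420 to 1976 with a median of 792 in P12 cells, and its P12 value exceeded the resistant one in 2 of 6 lines. Within lines, 35 of 37 members were higher in P12 than in resistant cells of line #6, 22 in line #3, and 9 to 14 in the other 4. Of all tested genes, 46.7% to 51.1% were higher, depending on the line.

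Against parental cells, which share their samples with the comparison of resistance, P12 had 0 members called with or without the block, where 0.114% and 0.523% of all genes were called. At an unadjusted p below 0.05, 8 members were higher and 0 lower, where 15.3% of all genes passed. The median was 1.21, and 33 of 37 members were higher. Without P12 of line #6 the median was 0.52, with 27 of 36 tested members higher, since Oas2 no longer passed the filter. Without line #9 the median was 1.99 over 36 tested members, and with the block Ddx58, Ifi27 and Ifitm3 were called, where 1.15% of all genes were. Ifi27, a mitochondrial protein of the response, was the only member whose groups did not overlap, with 31.8 to 128 with a median of 105 in parental and 163 to 2485 with a median of 467 in P12 cells, where 0.793% of all genes were higher without overlap. Its log2 difference was 2.69 (SE 0.80, adjusted p = 0.12). The log2 difference was 1.75 (SE 0.45, adjusted p = 0.0781) for Ddx58, 2.92 (SE 0.82, adjusted p = 0.108) for Mx1 and 2.50 (SE 0.91, adjusted p = 0.198) for Usp18, the protease that removes ISG15.

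P12 of line #6 was the sample with the highest level of the median member. Oas1a, which makes the messenger that activates RNase L, was at 892 there and at most 27.5 in the other 20 samples. Oas2 was at 367 against at most 23.1, and Zbp1, the sensor of Z-form nucleic acid that failed the filter, at 157 against at most 12.8. The level was at or under that of 3 reads in 10 of the 21 samples for Oas1a, in 12 for Oas2 and in 8 for Zbp1. Oas2 passed the filter only with P12 of line #6 included. Irf7 stood at 1168 (5.57-fold above the next sample), Ifi44 at 782 (10.6-fold), Ifit3 at 1160.5 (7.50-fold) and Isg15 at 838 (2.42-fold). In line #6 all 37 tested members were higher in P12 than in parental cells, 34 of them more than 2-fold, where 17.96% of all genes were. Ifnb1, the gene of interferon beta, was at 3.19 in it and at most 1.33 elsewhere, near the level of 3 reads.

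**Figure D4:**
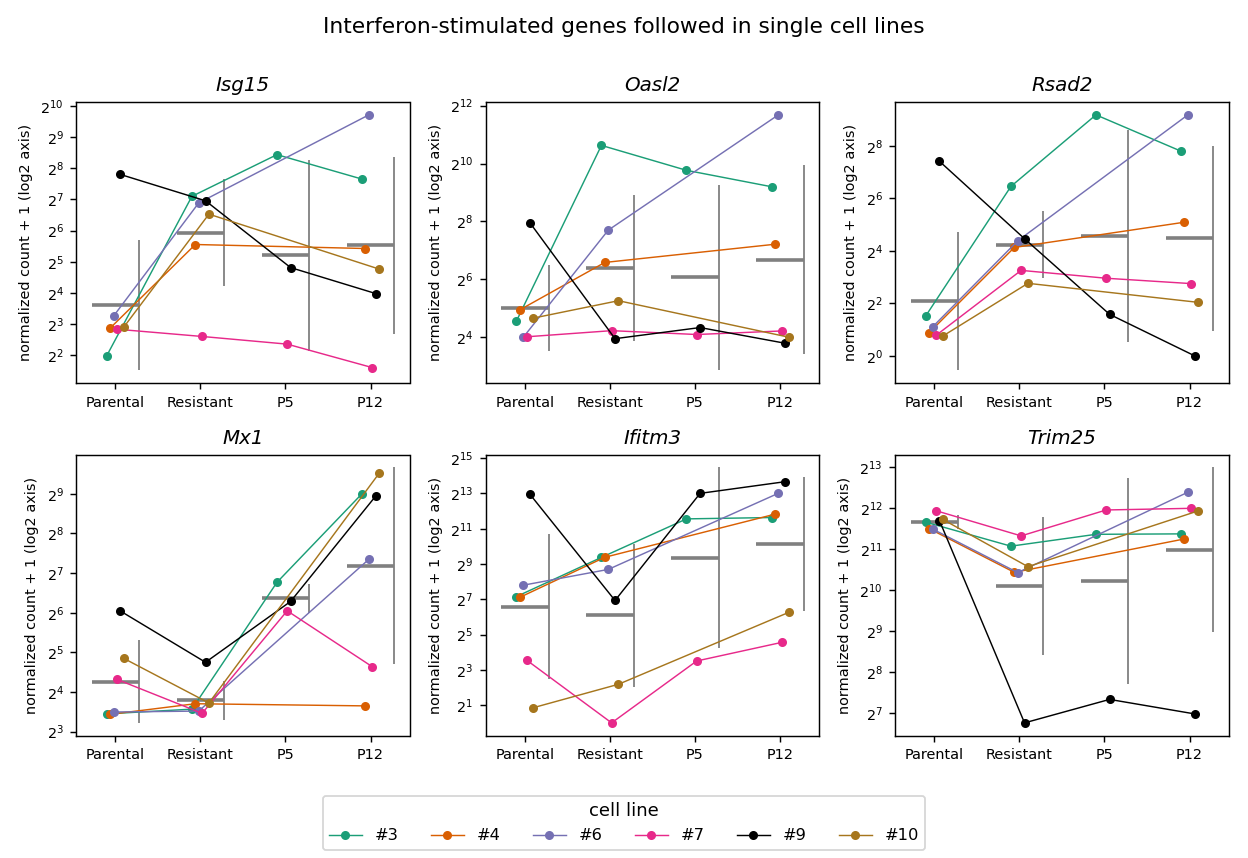
Normalized counts + 1 (log2 axis) of Isg15, Oasl2, Rsad2, Mx1, Ifitm3 and Trim25 by state. Points are samples joined by cell line; grey bars are means of the log2 values with 1 SD. Line #6 reaches the top of the Isg15 and Oasl2 panels in P12, line #9 is highest of the parental samples for Rsad2, and Trim25 is at 107 to 159.6 in line #9 outside its parental sample.

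P5 cells were sequenced for 3 lines. No member was called in P5 against resistant, parental or P12 cells, with or without the block, where 0.378%, 0.0259% and 0.0% of all genes were called without it and 0.611%, 0.0259% and 0.0% with it. At an unadjusted p below 0.05, 1 member was higher (Mx1) and 1 lower (Ifi35) than in resistant cells, 4 were higher and 0 lower than in parental cells, and 0 passed against P12 cells. Of all genes, 15.4%, 10.4% and 0.674% passed in these comparisons. Ifi35 measured 508, 511 and 436 in lines #3, #7 and #9, all below the resistant range, with a log2 difference of -1.16 (SE 0.32, adjusted p = 0.062). Mx1 measured 108, 65.1 and 76.9, all above the resistant range, with a log2 difference of 2.58 (SE 1.01, adjusted p = 0.214). Of 37 members, 1 was higher and 1 lower without overlap. The share of all genes that did so is not given here, so these counts cannot be set against it. In P5 of line #3 Ifit1 was at 556, Rsad2 at 578 and Isg15 at 346, while lines #7 and #9 held 4.13 and 26.7 of Ifit1, 6.75 and 1.99 of Rsad2 and 4.14 and 27.2 of Isg15.

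Against parental cells the median over the members in P5 was 1.01, and without line #3 it was 0.06. Within line #3, 35 of 37 members were higher in P5 than in parental cells, with a median of 2.90, and 34 in P12, with a median of 2.70. In line #9, 8 and 6 members were higher in P5 and P12 than in parental cells, with medians of -1.56 and -2.41. Of all tested genes, 51.7% and 51.3% were higher in P5 and P12 of line #3, and 46.9% and 46.3% in those of line #9. From P5 to P12, 15 of 37 members were lower in all 3 lines, where 13.4% of all genes did, among them Isg15, Rsad2, Cmpk2, which acts beside Rsad2, and Oas2. Ifit2, Ifitm3 and Rtp4 were higher in all 3, where 11.7% of all genes did. Each of the lower members named had values under the level of 3 reads in line #7 or #9. In line #9, Oas2 went from 1.69 to 1.62 and Rsad2 from 1.99 to 0, and Cmpk2 ended at 1.90. Isg15 ended at 2.05 in line #7. Falls between such values cannot be told from counting error. These within-line changes have 1 sample on each side and no test.

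The interferon pathway was examined with a list of 119 genes, of which 104 were in the table and 92 passed the filter. The list was assembled with earlier results of these data known, and whether the pathway drives the members in these cells was not tested. The 8 interferon genes in the table stayed low, with no value above 12.9, reached by Ifne in parental line #3, and none passed the filter. In resistant against parental cells 3 of the 92 were called higher and 1 lower (5.3% of all genes), and with the block 6 were higher and 6 lower (10.5% of all genes).

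Of the receptors, Ifnar2, the chain of the type I receptor that binds interferon most tightly, measured 759.7 to 1496 with a median of 1309 in parental and 1954 to 5547 with a median of 2687 in resistant cells. The groups did not overlap, and the log2 difference was 1.31 (SE 0.22, adjusted p = 0.000736). Its partner Ifnar1 differed by 0.40 (SE 0.24, adjusted p = 0.295), Ifngr1 by -0.74 (SE 0.38, adjusted p = 0.211) and Ifngr2 by 0.42 (SE 0.24, adjusted p = 0.267), and none of these passed. The kinases Jak1 and Tyk2 differed by 0.13 (SE 0.20, adjusted p = 0.708) and 0.08 (SE 0.22, adjusted p = 0.845), and the sign for Tyk2 turned when values were rescaled to the upper quartile.

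Of the further genes, Nmi, which binds the Ifi35 protein, measured 105 to 180.3 with a median of 123 in parental and 174 to 688 with a median of 565 in resistant cells, with line #9 lowest of the resistant samples and within the parental range. Its log2 difference was 1.80 (SE 0.36, adjusted p = 0.00254). Parp10, another ADP-ribosyltransferase, measured 201 to 521 with a median of 362 and 708 to 2455 with a median of 1478 without overlap and differed by 2.00 (SE 0.40, adjusted p = 0.00243). Irf2bp1, a corepressor of the repressor Irf2, was the gene called lower, at 1041 to 1619 with a median of 1391 and 549.6 to 825 with a median of 695, with a log2 difference of -1.02 (SE 0.17, adjusted p = 0.000788). With the block, the induced genes Herc6 (adjusted p = 0.00542) and Rnf213 were called higher, and Lgals3bp, Slfn2, Ptpn6, Ifi207 and Ifi204 lower. Interferon-induced genes stood on both sides of this comparison.

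In P12 against resistant cells, 1 of 92 was called without the block, Ptpn6 (SHP-1), a phosphatase that restrains cytokine signalling, with 37.6 to 314 with a median of 51.2 in resistant and 170.2 to 972 with a median of 479 in P12 cells and a log2 difference of 2.68 (SE 0.49, adjusted p = 0.00258). With the block 7 were called higher and 0 lower: Ptpn6, Ifi203, Ifi204, Ifi207, Ifitm1, Slfn2 and Slfn8. Ifi204, a DNA sensor of the Ifi200 family, measured 5.49 to 199 with a median of 69.3 and 205 to 1035 with a median of 637 in these states, with an adjusted p of 0.00333 with the block. Ifitm1, which lies beside Ifitm3, measured 1.21 to 14.8 with a median of 3.73 and 40.2 to 1296 with a median of 469, with an adjusted p of 0.00842. Without P12 of line #6, 4 were called higher and 3 lower with the block, Ifnar2 and Herc6 among the latter. The log2 difference between P12 and resistant cells was -0.93 (SE 0.22, adjusted p = 0.0155) for Ifnar2, and between P12 and parental cells 0.38 (SE 0.22, adjusted p = 0.425). No gene of the list was called in P12 against parental cells or in any comparison of P5, with or without the block.

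**Figure D5:**
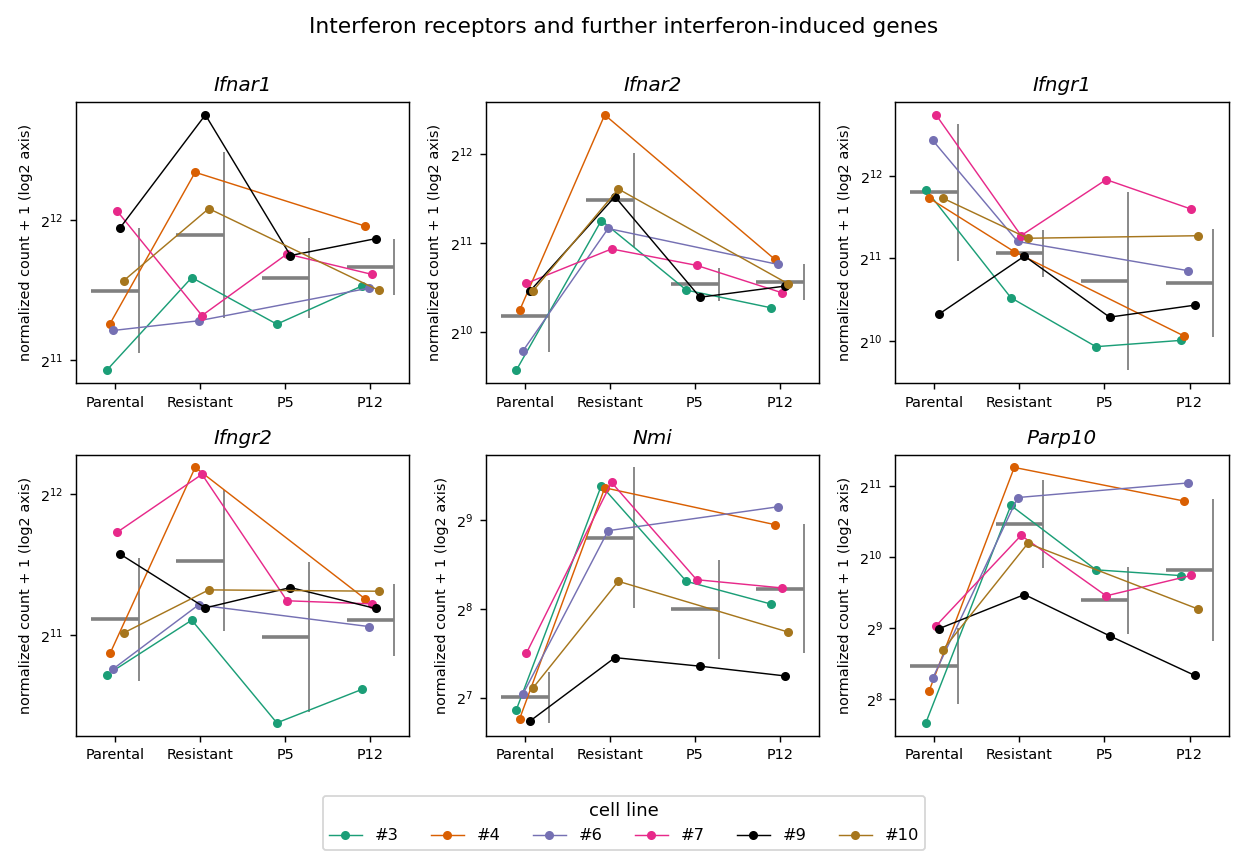
Normalized counts + 1 (log2 axis) of the interferon receptor genes Ifnar1, Ifnar2, Ifngr1 and Ifngr2 and of the interferon-induced genes Nmi and Parp10 by state. Points are samples joined by cell line; grey bars are means of the log2 values with 1 SD. For Ifnar2 and Parp10, every resistant sample lies above every parental one.

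Differences between lines were tested with the state in the model. Only Ifitm3 of the 37 members was called (adjusted p = 0.00019), against 7.92% of all tested genes. The line accounted for 88.7% of the variation of Ifitm3 within states, and its parental values ranged from 0.815 in line #10 to 7899 in line #9. Over the members the median share was 36.1%, and over all genes 50.4%. Without parental line #9 the median share was 55.9% over the members and 53.3% over all genes, and 3 of 36 members were called, where 9.01% of all genes were.

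The members moved together only in part. Over 21 samples, the median Spearman correlation between pairs of members was 0.48, and 0.40 over the 20 samples without P12 of line #6. These samples share lines and states and are not independent, so the values are descriptions. Gbp3 (0.91), Rsad2 (0.89), Xaf1 (0.88) and Gbp7 (0.88) followed the median of the other members most closely. Mx1 (0.06), Oasl1 (0.12) and Trim25 (-0.15) followed it least.

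Markers of other cells were measured beside these results, since the cultures could hold some and immune cells express the members strongly. Of 15 immune markers, 13 were in the table, 7 of them at or below the level of 3 reads in at least 15 of 21 samples. Their summed level was 145 to 292 in parental, 219 to 2915 in resistant and 231 to 318 in P12 cells. The defining leukocyte gene Ptprc (CD45) measured 3.02 to 20.01, with 3.02 in P12 of line #6 and 20.01 in parental line #9. The high sum in resistant cells came from Csf1r at 2530.0 in line #10. Of 6 endothelial markers the sum was 32.8 to 2757 in resistant cells, led by Tek in line #6. Acinar markers summed to at most 949 in any sample. The part of these cells in the results was not tested.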

How the data were processed

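Poly(A) RNA (TruSeq Stranded mRNA) of 21 samples was sequenced on HiSeq or NovaSeq machines. Which sample ran on which was not given in the sources used here, so no batch was compared. The authors quantified transcripts with Salmon 0.12 against the mouse mm10 transcriptome, summed them per gene and normalized with DESeq2 1.18. The deposited values, a signal, are these normalized counts, which keep no gene length, so levels are compared within genes only. Whole reads could not be recovered for most genes: in a sample, 25.9% to 60.5% of low values fell on steps of 1 read (tolerance 0.01), so no count model was used, and depths are estimates.

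The members and the gene lists were chosen with earlier results of these data known. The 19300 genes that reached 10 in 3 or more samples were tested as log2(value + 1), which understates changes of low genes, with limma 3.58.1 in R 4.3.3 (all 21 samples, trend, no covariate, Benjamini-Hochberg over all tested genes). A gene was called at an adjusted p below 0.01 and a log2 difference above 1 or below -1. The alternative fit with the cell line as block rests on shared origin: samples of a line correlated in their deviations from the state means (mean r 0.24 for parental with resistant, 0.46 for resistant with P12 and 0.32 for parental with P12, against -0.05, -0.09 and -0.06 between lines). Fold changes are given for called members and the next by adjusted p up to 8 per comparison, and for fixed or called pathway genes. Genes shown with levels only were named after their values were seen. Scripts were tested on simulated data. Tables and plots used Python 3.11.15, pandas 2.3.3, numpy 2.4.6 and matplotlib 3.10.9. Some items of the genotype and the pathway list are not reported here.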

Additional observations from a re-analysis of the deposited data

Results flagged for a closer look

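Within the states with 6 samples, single samples lay apart from the nearest other sample by more than 0.625 of the range on the log2 scale for the following members, a distance that chance alone gives in about 1 in 20 groups. All 38 members were examined in each of these states, so chance alone would give several such values. Some of the values lie at or under the level of 3 reads, such as Igtp in parental line #3, where that level was 3.02. P12 of line #6 was highest for Stat2 (4373, next 1117), Ifit3 (1160.5, next 48.4), Oas1a (892, next 4.38), Oas2 (367, next 8.09) and Zbp1 (157, next 6.86). Parental line #9 was highest for Oasl2 (246, next 29.7), Isg15 (222, next 8.62), Cmpk2 (204, next 4.84) and Rsad2 (169, next 1.88). Line #9 was lowest for Ifih1 in resistant (27.4, next 394) and P12 cells (2.83, next 170.1), for Trim25 in resistant (107, next 1375) and P12 cells (125, next 2433) and for Gbp7 in resistant cells (8.50, next 188), and highest for Mx1 in resistant cells (25.9, next 12.2). The remaining values of this kind were Isg15 in resistant line #7 (5.10, next 46.1), Usp18 in resistant line #10 (88.2, next 16.9), Dtx3l in parental line #7 (793, next 364) and Igtp in parental line #3 (3.00, next 30.5).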

How the results depend on the processing

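Precision is limited by 6 lines (3 for P5), and genes under about 10 normalized counts rest on few reads. With the cell line as replicate block, 12 pathway genes were called in resistant against parental cells, and in P12 against resistant cells 2 members and 7 pathway genes. At an adjusted p below 0.05, 7 members and 13 pathway genes were called in resistant against parental cells (11.3% of all genes), 1 member and 9 pathway genes in P12 against resistant cells (4.91%), and 4 members between lines (24.2%). With only the compared states in the fit, 8 pathway genes were called in resistant against parental cells. With a mean of at least 100, 2 pathway genes were called in P12 against resistant cells. Rescaling to the upper quartile moved the median of all genes in P12 against resistant cells from 0.02 to 0.20; there 2 pathway genes were called, between lines 2 members (8.08% of all genes), and the log2 difference of Tyk2 in resistant against parental cells was -0.011. Leaving out a line or library, with and without the block, gave 1 to 8 members and 1 to 14 pathway genes in resistant against parental cells, 0 to 2 and 0 to 7 in P12 against resistant cells, 0 to 3 and 0 to 2 in P12 against parental cells, and 1 to 3 members between lines. The median over members for P5 against P12 ran from -0.50 to 0.14, Tyk2 in resistant against parental cells from -0.061 to 0.17, Ifit2 in P5 against resistant cells from -1.37 to 0.044 and Ifi44 in P5 against P12 from -2.30 to 0.017. In the leave-out fits of resistant against parental cells whose shares are given above, 2.37% to 10.6% of all genes were called. Between lines, the leave-out fits called 1.86% to 9.01% of all genes. Counts given without such a share here or above cannot be set against all genes. The lines and libraries that decide the member counts are named with the results. The causes of these shifts were not tested. The log2 differences of named genes changed sign in 6 alternative fits, those of Tyk2, Ifit2 and Ifi44 above, and in no other that was run.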
